A study of Homo sapiens with 9 samples.

Results

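TM4SF4, FGL1, PRR16 and LIX1 are 4 genes whose transcripts were low in neuroblastoma cells given simvastatin and high again when mevalonate was added to the drug. They were chosen by their measured differences between the groups, on the same arrays, out of 14884 named genes measured. Their differences between simvastatin and DMSO, and between simvastatin with and without mevalonate, are therefore given as descriptions with no test. The cells were SMS-KCNR, an established human neuroblastoma line and the only line used, all collected after 30 hours. One group had simvastatin (5 µM) plus mevalonate (2 mM), another simvastatin alone (5 µM), and the solvent group DMSO, with 3 one-channel Affymetrix arrays in each. Each gene had 1 probeset annotated to it alone. The deposited value is on the log2 scale, so that a difference of 1 is a doubling of the underlying linear value.

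Simvastatin is a statin, which blocks the enzyme that makes mevalonate. Mevalonate is the starting material of cholesterol and of the isoprenoid lipids that anchor many signalling proteins to membranes, and adding it to the medium bypasses the blocked step. TM4SF4 encodes a small multi-pass membrane protein of the L6 family, known from liver and intestinal epithelium. FGL1 encodes fibrinogen-like protein 1, which hepatocytes secrete and which binds the T-cell inhibitory receptor LAG3. PRR16 encodes Largen, a proline-rich protein reported to increase cell size through the translation of selected messenger RNAs. LIX1, limb expression 1, was described in the chick limb bud and has been linked to the Hippo effector YAP in mesenchymal progenitor cells. The classic statin-responsive gene HMGCS1, an early enzyme of mevalonate synthesis, averaged 8.62 with mevalonate added, 9.67 with simvastatin and 8.01 with DMSO (log2 change with simvastatin against DMSO 1.66 ± 0.05 SE, limma adjusted p = 3.08e-06). With mevalonate added HMGCS1 stayed 0.60 ± 0.05 above DMSO (limma adjusted p = 0.0129). That call was lost without any single DMSO array or simvastatin plus mevalonate replicate 1. It was also lost with only the groups compared or with a replicate block (limma adjusted p up to 0.0904).

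To show what lies in front of these genes, RefSeq promoters (GRCh38.p14, 250 bases before to 50 bases after an annotated start) were read for TM4SF4 and PRR16, the 2 of 4 genes matched in the promoter table. They are printed 5′ to 3′ on the gene's strand, with matches to the searched motifs in capitals. TM4SF4 lies on chromosome 3 and its promoter is chr3:149474447-149474746, plus strand. PRR16 lies on chromosome 5 and has 3 annotated starts, of which the most upstream, chr5:120464050-120464349, and the most downstream, chr5:120531214-120531513, both plus strand, are shown.
TM4SF4: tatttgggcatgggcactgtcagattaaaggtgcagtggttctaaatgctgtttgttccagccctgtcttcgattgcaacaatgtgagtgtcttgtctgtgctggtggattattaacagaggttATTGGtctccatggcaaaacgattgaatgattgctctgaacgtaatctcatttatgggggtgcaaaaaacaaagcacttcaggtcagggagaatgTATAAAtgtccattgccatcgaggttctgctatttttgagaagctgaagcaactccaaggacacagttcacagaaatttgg
PRR16 upstream start: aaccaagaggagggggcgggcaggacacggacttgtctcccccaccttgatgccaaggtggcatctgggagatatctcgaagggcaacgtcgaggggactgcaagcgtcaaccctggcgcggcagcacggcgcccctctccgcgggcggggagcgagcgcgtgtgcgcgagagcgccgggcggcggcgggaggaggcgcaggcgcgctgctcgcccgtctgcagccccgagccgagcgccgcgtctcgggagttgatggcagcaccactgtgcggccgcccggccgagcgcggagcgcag
PRR16 downstream start: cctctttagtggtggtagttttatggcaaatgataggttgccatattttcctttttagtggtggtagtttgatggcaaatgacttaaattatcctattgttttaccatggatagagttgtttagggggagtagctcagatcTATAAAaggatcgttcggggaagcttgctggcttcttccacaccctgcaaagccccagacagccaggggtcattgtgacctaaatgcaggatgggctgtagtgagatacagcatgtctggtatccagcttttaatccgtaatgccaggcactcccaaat

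The TM4SF4 promoter held TATAAA at position -31 from the start, and the CCAAT box on the other strand at position -126. The downstream PRR16 start had TATAAA at position -109, and the upstream start had none of the motifs searched. The middle start, which is not printed, had the CCAAT box on the other strand at position -214. Positions are those of the leftmost letter of a match, counted back from the start. Both strands were searched, and each motif is given with the share of 35116 promoters of the same length that held it. They were the TATA box TATAAA (11.5%), the box CCAAT (34.6%), the E-box CACGTG (7.26%), GATAAG for GATA factors (6.36%), CATTCC for TEAD factors (14%), and TGANTCA for AP-1 (7.71%). Further motifs were TGACGTCA for CREB (1.85%), TCACNCCAC, the sterol response element (1.13%), and TAATTA for homeodomain proteins (4.84%). The upstream PRR16 promoter was rich in G and C (73.3%) with 41 CpG pairs, whereas that of TM4SF4 had 42.7% and 4 CpG pairs and the downstream PRR16 promoter 44.3% and 3. The middle one had 68.7% and 24. The median over the 35116 promoters was 58.7% with 14 CpG pairs. The arrays give 1 value for PRR16 and do not show which start was used, and a match of letters is not a measured binding site.

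TM4SF4 was measured at 7.75, 7.66 and 7.70 on the simvastatin plus mevalonate arrays, at 6.20, 6.48 and 6.30 on the simvastatin arrays and at 7.98, 7.83 and 7.92 on the DMSO arrays. The simvastatin arrays lay far below both other groups, and the highest of them was 1.35 under the lowest DMSO array. Simvastatin alone left TM4SF4 2.99-fold below DMSO (log2 difference -1.58 ± 0.07 SE), and adding mevalonate put it 2.60-fold above simvastatin alone (1.38 ± 0.07). All 3 arrays with mevalonate still lay under all 3 DMSO arrays, by 0.08 at the closest, which held for 9.22% of all genes. In these bulk samples, fewer cells with the transcript and less transcript per cell cannot be told apart.

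FGL1 stood at 6.33, 6.17 and 6.07 with simvastatin plus mevalonate, at 4.78, 4.84 and 4.60 with simvastatin and at 6.34, 6.32 and 6.27 with DMSO. With mevalonate, 2 of 3 arrays were under all DMSO arrays and the remaining array lay among them. The log2 difference was -1.57 ± 0.08 for simvastatin against DMSO (2.96-fold lower) and 1.45 ± 0.08 for simvastatin plus mevalonate against simvastatin (2.73-fold higher). On all 3 simvastatin arrays FGL1 was below that array's median over all probesets, and its values there are among the dim ones.

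PRR16 had values of 8.93, 8.81 and 8.90 with simvastatin plus mevalonate, 7.56, 7.68 and 7.48 with simvastatin, and 8.63, 8.63 and 8.73 with DMSO. Here the order of the outer groups was turned, and all 3 arrays with mevalonate exceeded all 3 DMSO arrays, as 7.24% of all genes did. Simvastatin alone was 2.13-fold below DMSO (-1.09 ± 0.06) and simvastatin plus mevalonate 2.47-fold above simvastatin (1.31 ± 0.06).

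LIX1 showed the same order as PRR16, at 9.71, 9.69 and 9.77 with simvastatin plus mevalonate, 8.65, 8.51 and 8.60 with simvastatin and 9.59, 9.57 and 9.58 with DMSO. The DMSO arrays were nearly identical (SD 0.01, n = 3), and again every array with mevalonate was above them. The difference was -0.99 ± 0.05 with simvastatin (1.99-fold lower than DMSO) and 1.14 ± 0.05 for mevalonate added to simvastatin (2.20-fold higher).

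**Figure D1:**
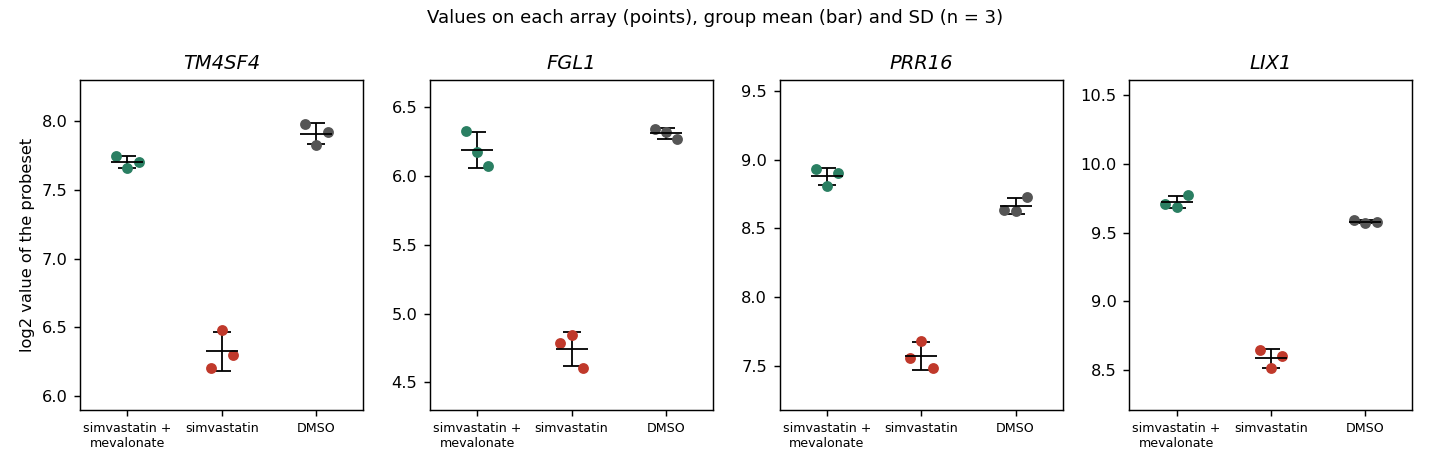
Log2 value of the probeset of TM4SF4, FGL1, PRR16 and LIX1 on each array (points), with the group mean (long bar) and SD (n = 3), for simvastatin plus mevalonate, simvastatin and DMSO. The panels share the length but not the position of the vertical axis. In each panel the 3 simvastatin points lie below all others. With mevalonate, TM4SF4 stays just under DMSO (7.70 against 7.91 on average), while PRR16 (8.88 against 8.66) and LIX1 (9.72 against 9.58) lie above it.

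In all 4 genes the simvastatin arrays lay below every DMSO array, which held for 14.7% of the 14884 genes, and the arrays with mevalonate lay above every simvastatin array, which held for 13.6%. These counts follow from the way the genes were picked. Ordered by the difference between simvastatin and DMSO, TM4SF4 had rank 4, FGL1 rank 5, PRR16 rank 16 and LIX1 rank 27 from the lowest. Ordered by the difference made by mevalonate on top of simvastatin, FGL1 had rank 3, TM4SF4 rank 4, PRR16 rank 5 and LIX1 rank 10 from the highest. The median log2 difference of all genes was 0.01 for simvastatin minus DMSO and 0.00 for both other comparisons.

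The share of the gap between DMSO and simvastatin that mevalonate closed was computed on the log2 scale from the group means, with no test. It was 87.0% for TM4SF4 and 92.5% for FGL1, but 119.9% for PRR16 and 115% for LIX1, so PRR16 and LIX1 averaged above DMSO. Leaving out any 1 array kept TM4SF4 between 84.9% and 89.0%, FGL1 between 88.0% and 96.4%, PRR16 between 118% and 124% and LIX1 between 112% and 116%.

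The comparison of simvastatin plus mevalonate with DMSO was not named in the choice of the genes, though its arrays entered that choice. Its difference is the sum of the differences used in the choice, and choosing falls that mevalonate reversed favours a small sum. The values, tests and counts here therefore describe chosen genes and are no independent result. No difference passed the test after adjustment. TM4SF4 differed by -0.21 ± 0.07 on the log2 scale, with a 95% interval from -0.38 to -0.04 (limma adjusted p = 0.384). FGL1 differed by -0.12 ± 0.08 (interval -0.30 to 0.07, limma adjusted p = 0.640). PRR16 differed by 0.22 ± 0.06 (interval 0.07 to 0.36, limma adjusted p = 0.272) and LIX1 by 0.14 ± 0.05 (interval 0.04 to 0.25, limma adjusted p = 0.324). Thus 0 of 4 genes passed the adjusted test and 3 of 4 had an unadjusted p under 0.05, where 0.0739% of all genes passed the adjusted test (0.0336% as higher and 0.0403% as lower) and 11% had an unadjusted p under 0.05. The intervals include a remaining difference of up to 0.38 below DMSO for TM4SF4 and up to 0.36 above it for PRR16.

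**Figure D2:**
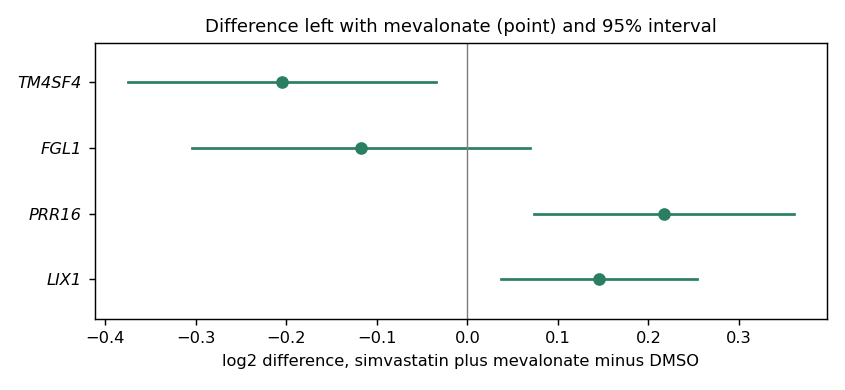
Difference between simvastatin plus mevalonate and DMSO on the log2 scale (point) with limma's 95% interval, for each of the 4 genes, from 9 arrays. The points of TM4SF4 (-0.21) and FGL1 (-0.12) are left of 0 and those of PRR16 (0.22) and LIX1 (0.14) right of it. The interval of FGL1 spans 0, and none of the 4 passed the test after adjustment over 14884 genes.

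Gene families related to the 4 genes were compared in the same fit, leaving out the 4 genes. Simvastatin changed 13.4% of all genes, 5.98% upward and 7.38% downward, and mevalonate added to simvastatin changed 5.31% upward and 5.72% downward (limma, adjusted p under 0.05). At an unadjusted p under 0.05 these shares were 25.6% and 23.8% in either direction. Both comparisons use the same 3 simvastatin arrays, so their values are not independent and are given side by side only.

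Of the 5 other members of the L6 family, TM4SF1, TM4SF5, TM4SF18, TM4SF19 and TM4SF20, none fell with simvastatin (limma, 2 had an unadjusted p under 0.05), and their median difference from DMSO was 0.25. TM4SF19 rose, by 0.27 ± 0.07 (limma adjusted p = 0.0378), a call lost without any single DMSO array, simvastatin replicate 3 or any array with mevalonate, with adjusted p up to 0.116. TM4SF20 (0.29), TM4SF1 (0.25), TM4SF5 (0.18) and TM4SF18 (0.01) did not pass. Added mevalonate changed none of the 5 (limma, 0 at an unadjusted p under 0.05), with differences from -0.11 to 0.01. For 3 of the 5 the mean over all arrays was below 5.19, the median of all probesets. TM4SF1 is the best known relative and marks endothelial and many tumour cells.

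Among genes for proteins with a fibrinogen-like domain, as FGL1 has, and ANGPTL8, an angiopoietin-like protein that lacks it, 3 of 20 fell with simvastatin and 0 rose (limma, 7 had an unadjusted p under 0.05). With mevalonate the same 3 rose and 0 fell (5 had an unadjusted p under 0.05). The median of the 20 was -0.05 with simvastatin and 0.06 with mevalonate. ANGPT2, which encodes angiopoietin-2, a ligand of the endothelial receptor TIE2, stood at 6.87, 6.94 and 6.73 with simvastatin plus mevalonate, at 6.17, 5.89 and 5.85 with simvastatin and at 7.16, 7.04 and 7.08 with DMSO. Its simvastatin arrays lay below every DMSO array, as in 14.7% of all genes, and below every array with mevalonate, as in 13.6%. The arrays with mevalonate lay below every DMSO array, as in 9.22%. ANGPT2 was 2.18-fold lower with simvastatin than with DMSO (-1.13 ± 0.09, limma adjusted p = 0.000118) and 0.88 ± 0.09 higher once mevalonate was added (limma adjusted p = 0.000519). MFAP4, a microfibril-associated glycoprotein of the extracellular matrix, was measured at 8.24, 8.24 and 8.06 with simvastatin plus mevalonate, at 7.17, 7.29 and 7.31 with simvastatin and at 7.89, 7.89 and 7.93 with DMSO. Like PRR16 and LIX1, it was above every DMSO array when mevalonate was present, as 7.24% of all genes were. It fell by 0.65 ± 0.06 with simvastatin (limma adjusted p = 0.000294), rose by 0.92 ± 0.06 with mevalonate (limma adjusted p = 6.64e-05), and its remaining difference from DMSO, 0.28, did not pass (limma adjusted p = 0.159).

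ANGPT1, angiopoietin-1, the activating ligand of TIE2, fell by 0.40 ± 0.07 with simvastatin (limma adjusted p = 0.00908) and rose by 0.37 ± 0.07 with mevalonate (limma adjusted p = 0.0156). The second call was lost without replicate 1 or 3 of either the simvastatin plus mevalonate or the simvastatin arrays, with adjusted p up to 0.0528, and ANGPT1 lay between 3.24 and 3.80 on all arrays, under the median of all probesets. FCN2, a ficolin gene of innate immunity, differed by -0.25 ± 0.10 and passed only without simvastatin replicate 3 (limma adjusted p = 0.141, and 0.0380 without it). ANGPTL8 (0.20) likewise passed as higher only without DMSO replicate 1 (limma adjusted p = 0.0345) and ANGPT4 (0.20) only without DMSO replicate 2 (0.0302). The fibrinogen chains themselves gave small values that did not pass, with FGA at -0.05, FGB at 0.06 and FGG at 0.03 for simvastatin minus DMSO. FGL2, the closest namesake of FGL1, differed by -0.05 ± 0.16 (limma adjusted p = 0.888). FGA, FGB, FGG and FGL2 were below the array's median over all probesets on all 9 arrays. For 8 of the 20 genes the mean over all arrays was below the median of all probesets.

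**Figure D3:**
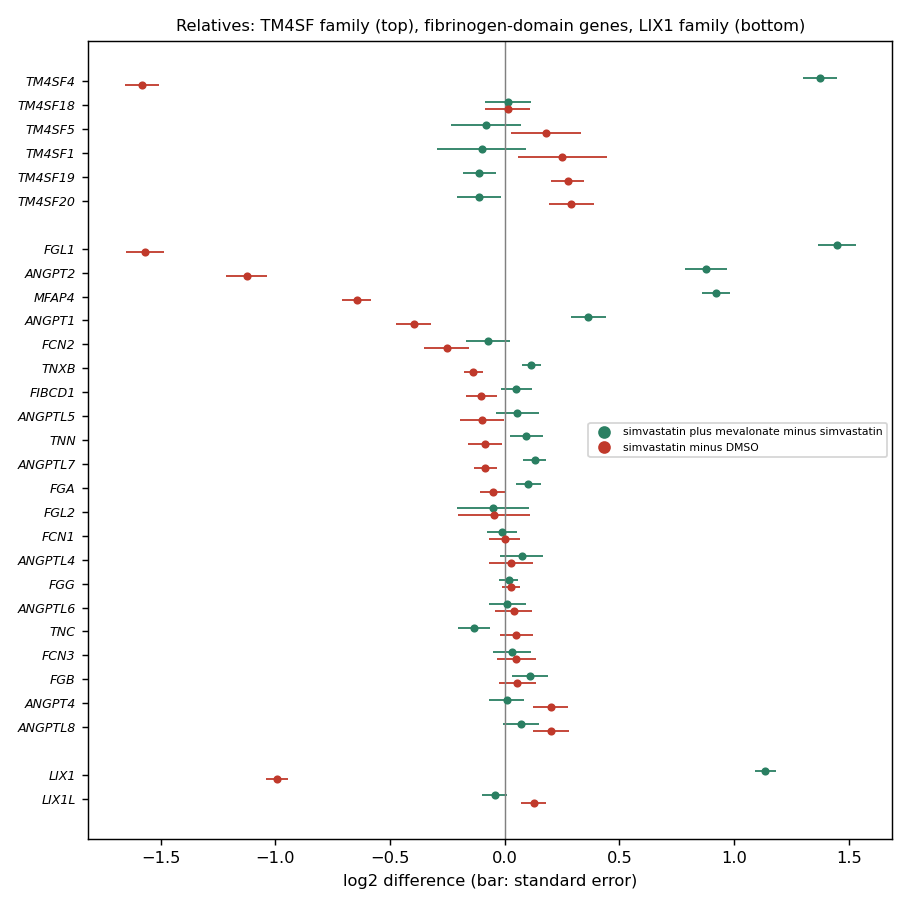
Log2 differences with standard errors for simvastatin plus mevalonate minus simvastatin (green) and simvastatin minus DMSO (red), for the L6 family (top), genes with a fibrinogen-like domain (middle) and the LIX1 family (bottom). TM4SF4, FGL1 and LIX1 are far from 0 on both sides because they were chosen so. Beside them only ANGPT2 (-1.13), MFAP4 (-0.65) and ANGPT1 (-0.40) passed the test as lower with simvastatin, and LIX1L (0.13) did not pass.

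FGL1 is a ligand of LAG3, and other genes for ligands of immune checkpoints were compared for that reason, together with LAG3. Of 11 measured, 1 fell and 1 rose with simvastatin, and both went the other way with mevalonate, with a median of 0.07 for simvastatin minus DMSO. CD200, a membrane glycoprotein that restrains myeloid cells, was lower by 0.72 ± 0.08 with simvastatin (limma adjusted p = 0.000479) and higher by 0.61 ± 0.08 with mevalonate (limma adjusted p = 0.00127). PVR, the poliovirus receptor, a ligand of TIGIT and DNAM-1, rose by 0.52 ± 0.07 (limma adjusted p = 0.00172) and fell by 0.45 ± 0.07 with mevalonate (limma adjusted p = 0.00450). VTCN1 (0.26) passed as higher only without DMSO replicate 3 (limma adjusted p = 0.0175) or with a replicate block (0.0375), and CD86 (-0.09), CD276 (0.07), CD47 (0.02) and CD274 (0.05) did not pass. LAG3 itself, a T-cell gene, was at 5.44 with simvastatin plus mevalonate, 5.53 with simvastatin and 5.46 with DMSO.

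LIX1 has 1 close relative, LIX1L. It was 9.51 ± 0.07 with simvastatin plus mevalonate, 9.55 ± 0.07 with simvastatin and 9.42 ± 0.03 with DMSO (SD, n = 3 each), and its difference with simvastatin, 0.13 ± 0.05 SE, did not pass (limma adjusted p = 0.179). Genes of the Hippo pathway, a kinase cascade that restrains the coactivators YAP1 and WWTR1, were split. With simvastatin 3 of 14 fell and 2 rose (median 0.02), and with mevalonate 2 rose and 2 fell. STK4, the Hippo kinase MST1, rose by 0.25 ± 0.05 (limma adjusted p = 0.0115) and fell by 0.25 ± 0.05 with mevalonate (limma adjusted p = 0.0116). The transcription factor gene TEAD1, the DNA-binding partner of YAP1, was lower by 0.33 ± 0.05 (limma adjusted p = 0.00208) and rose by 0.39 ± 0.05 with mevalonate (limma adjusted p = 0.00110). TEAD2 was lower by 0.70 ± 0.10 (limma adjusted p = 0.00227), and its rise of 0.43 ± 0.10 with mevalonate (limma adjusted p = 0.0274) was lost without simvastatin replicate 2 or 3 or any array with mevalonate, with adjusted p up to 0.0923. TEAD4 moved the other way, up by 0.35 ± 0.07 with simvastatin (limma adjusted p = 0.0157, lost without DMSO replicate 2 or 3, up to 0.0579) and down by 0.40 ± 0.07 with mevalonate (limma adjusted p = 0.00994). TEAD3 (0.37 with simvastatin, limma adjusted p = 0.129) did not pass, and its difference of -0.47 with mevalonate (limma adjusted p = 0.0611) passed without DMSO replicate 1 (0.0432) or simvastatin replicate 2 (0.0497), with trend and robust options (0.0268) and with genes below the median of all probesets left out (0.0332). NF2 (-0.18, limma adjusted p = 0.123) passed as lower only without simvastatin replicate 2 (0.0281). The fall of VGLL4, an antagonist of YAP1, by 0.35 ± 0.08 (limma adjusted p = 0.0178) was lost without DMSO replicate 1 or 3 or simvastatin replicate 3, up to 0.0629. YAP1 itself (0.02) did not pass and was below the median of all probesets, and its difference of -0.14 with mevalonate passed only without simvastatin plus mevalonate replicate 3 (limma adjusted p = 0.0195). Of 9 YAP/TEAD target genes 0 changed with simvastatin (limma, 1 at an unadjusted p under 0.05) and 0 with mevalonate (2 at an unadjusted p under 0.05). For 4 of the 9 the mean over all arrays was below the median of all probesets. Of the 15 targets listed, CCN1, F3, NT5E, TGFB2, PTPN14 and NUAK2 were not among the measured genes. By limma with trend and robust options AMOTL1 (0.17) rose with simvastatin, and AMOTL1 (-0.15) and FJX1 (-0.24) fell with mevalonate. With quantile normalization or without genes below the median, AMOTL1 rose and FJX1 fell likewise, and FJX1 also fell without simvastatin replicate 2 (limma adjusted p = 0.0390). AXL (0.20), AJUBA (0.18) and FJX1 (0.14) did not pass with simvastatin, and the median for simvastatin minus DMSO was 0.06.

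For PRR16 no family was compared, but 12 measured genes for the control of cell growth and translation were. With simvastatin 3 rose and 1 fell, and with mevalonate 2 rose and 2 fell, with a median of 0.01 for simvastatin minus DMSO. EIF4EBP1, which holds back the cap-binding factor EIF4E, rose by 0.50 ± 0.06 (limma adjusted p = 0.000943) and fell by 0.36 ± 0.06 with mevalonate (limma adjusted p = 0.00633). Its paralog EIF4EBP2 moved the other way, down by 0.30 ± 0.04 (limma adjusted p = 0.00136) and up by 0.28 ± 0.04 with mevalonate (limma adjusted p = 0.00258). DEPTOR, an inhibitor of the growth kinase mTOR, rose by 0.40 ± 0.06 with simvastatin (limma adjusted p = 0.00286). Its fall of 0.30 ± 0.06 with mevalonate (limma adjusted p = 0.0151) was lost without simvastatin replicate 2 or simvastatin plus mevalonate replicate 1 or 2, up to 0.0582. The third rise with simvastatin, that of the translation factor gene EIF4B (0.17 ± 0.04, limma adjusted p = 0.0344), was lost without any single array except simvastatin replicate 1 and simvastatin plus mevalonate replicates 2 and 3, up to 0.110. The other rise with mevalonate was that of EIF4E (0.18 ± 0.04, limma adjusted p = 0.0320), lost without any array except simvastatin replicate 2 and simvastatin plus mevalonate replicate 2, up to 0.109.

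To see whether the genes beside them on the chromosome shared these values, the 3 nearest named and measured genes on each side were taken from the RefSeq gene order. None of them overlaps the gene it flanks. Around TM4SF4, PRR16 and LIX1, 0 of 18 neighbours changed with simvastatin (limma, 0 at an unadjusted p under 0.05). Of these 18, CP, TM4SF18, TM4SF1, WWTR1-AS1, FTMT, MIR583 and ERAP2 were below the array's median over all probesets on all 9 arrays. The same held for NAT1 beside FGL1. Around FGL1, on chromosome 8, 3 of 6 fell with simvastatin and 0 rose, against 7.38% and 5.98% of all genes. With mevalonate 2 of these 6 rose and 0 fell, and of the other 18 neighbours 1 fell and 0 rose. MTUS1, a microtubule-associated tumour suppressor, was measured at 7.49, 7.57 and 7.50 with simvastatin plus mevalonate, at 7.05, 7.11 and 7.01 with simvastatin and at 7.52, 7.57 and 7.60 with DMSO. It fell by 0.51 ± 0.05 with simvastatin (limma adjusted p = 0.000207) and rose by 0.46 ± 0.05 with mevalonate (limma adjusted p = 0.000422). The probeset named MIR548V, a microRNA gene that lies within MTUS1, was lower by 0.59 ± 0.12 (limma adjusted p = 0.0127) and then higher by 0.69 ± 0.12 (limma adjusted p = 0.00689). It cannot be counted as separate from its host gene. PCM1, a centriolar satellite protein gene on the other side of FGL1, fell by 0.27 ± 0.04 (limma adjusted p = 0.00256). Its difference of 0.12 with mevalonate did not pass (limma adjusted p = 0.109), except with trend and robust options (0.00924). PDGFRL (-0.27, limma adjusted p = 0.0547) passed as lower without simvastatin replicate 1 (0.00685), where it also rose with mevalonate (0.0226), with trend and robust options (0.0331) and with genes below the median left out (0.0290), and ASAH1 (0.11) and NAT1 (-0.04) did not pass.

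The neighbours of TM4SF4 are CP (-0.12), the copper-carrying ceruloplasmin gene, its relatives TM4SF18 (0.01) and TM4SF1 (0.25), the Hippo effector gene WWTR1 (0.19) with its antisense WWTR1-AS1 (-0.11), and COMMD2 (-0.07), none of which passed. Around PRR16, DTWD2 (0.01), DMXL1 (-0.03), HSD17B4 (-0.04), FTMT (0.00), SRFBP1 (0.05) and the collagen cross-linking enzyme gene LOX (0.07) were near 0 with simvastatin, with a median of 0.01. DTWD2 was higher by 0.20 when mevalonate was added (limma adjusted p = 0.0616, which did not pass). It passed with trend and robust options (0.0340) and with genes below the median left out (0.0307). Next to LIX1, the peptidase genes ERAP1 (0.03) and ERAP2 (0.00), the kinase gene RIOK2 (0.02) and the chromatin remodeller gene CHD1 (0.02) were near 0 with simvastatin, and MIR583 (0.15) and RGMB-AS1 (-0.20) did not pass. ERAP1 fell by 0.21 ± 0.05 when mevalonate was added (limma adjusted p = 0.0349), a call lost without any array except DMSO replicate 1 and simvastatin replicate 1, up to 0.104. MIR583 was lower by the same comparison (-0.61, limma adjusted p = 0.0617, which did not pass) without simvastatin replicate 3 (0.0426) or simvastatin plus mevalonate replicate 1 (0.0248) and with trend and robust options (0.0340), and ERAP2 was higher (0.12) only without simvastatin plus mevalonate replicate 2 (0.0498).

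**Figure D4:**
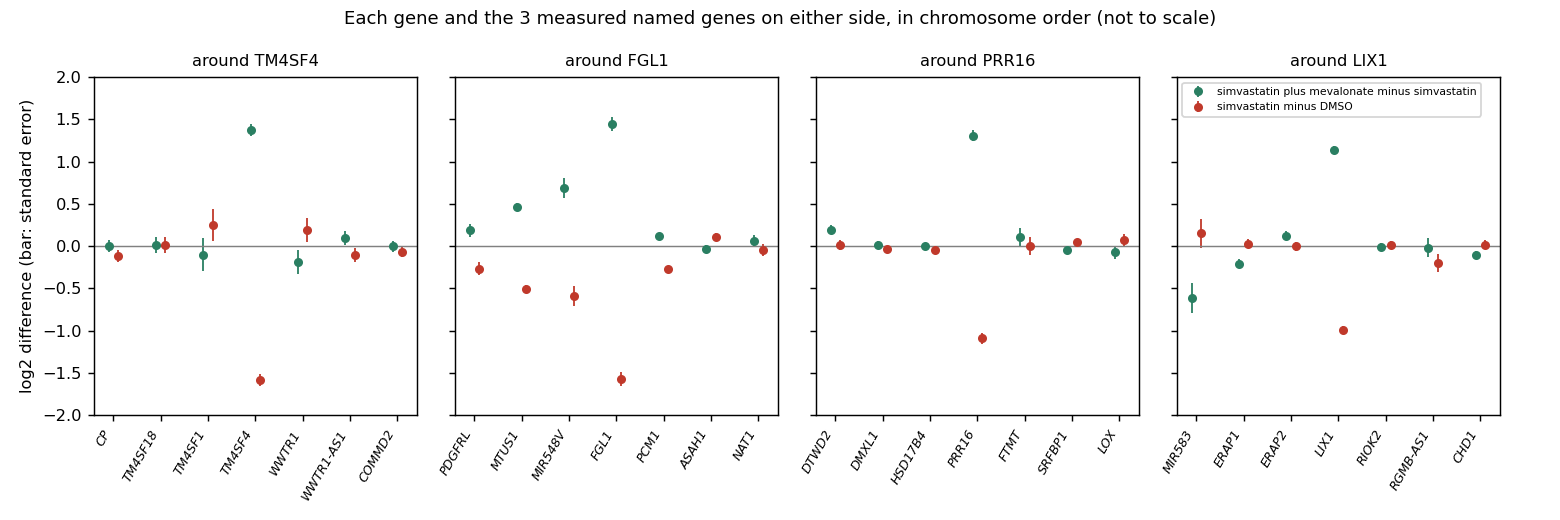
Log2 differences with standard errors for simvastatin plus mevalonate minus simvastatin (green) and simvastatin minus DMSO (red) for each of the 4 genes and the 3 measured named genes on either side, in chromosome order and not to scale. Around TM4SF4, PRR16 and LIX1 only the middle gene stands far from 0 with simvastatin. Around FGL1, MTUS1 (-0.51), MIR548V (-0.59) and PCM1 (-0.27) were lower as well.

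Genes with the most similar pattern were found by Pearson's r over the 9 arrays among 13152 named genes, as a description. All points share the same 9 arrays and follow the 3 groups, so a high r is common, and between 394 (PRR16) and 554 (TM4SF4) genes had r above 0.9. Closest to TM4SF4 were TOX (r = 0.996), a nuclear HMG-box protein gene, TFAP2B (0.996), a transcription factor gene of the sympathetic lineage, the mitotic gene DEPDC1 (0.995), the phosphatase gene CDC14A (0.995) and the mitotic kinesin gene KIF20A (0.994). Closest to FGL1 were the lipid-remodelling enzyme gene LPCAT2 (0.995), CDCA2 (0.995), a regulator of mitotic chromosomes, LRCH1 (0.993), DBH (0.992), which makes noradrenaline, and ANTXR1 (0.992), an anthrax toxin receptor gene.

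PRR16 was followed most closely by ISOC1 (0.995), the adaptor gene DOK4 (0.994), ELMO1 (0.991), part of an activator of the GTPase RAC, LRRN3 (0.991) and ARHGEF28 (0.990). For LIX1 these were EML5 (0.995), ISOC1 (0.993), the mesenchymal transcription factor gene TWIST1 (0.991), the kinetochore gene KNSTRN (0.989) and ELMO1 (0.988). ISOC1 and ELMO1 thus stood among the 5 closest genes of both PRR16 and LIX1, while TM4SF4 and FGL1 shared none of their 5. The residual difference from DMSO was negative in the 5 genes nearest TM4SF4 (from -0.23 to -0.09) and FGL1 (-0.12 to -0.04), and positive in those nearest PRR16 (0.04 to 0.20) and LIX1 (0.02 to 0.20). That follows from the measure, since r matches the order of all 3 groups. Among themselves, TM4SF4 and FGL1 correlated at 0.990 and PRR16 and LIX1 at 0.987, and the 4 cross pairs at 0.958 to 0.969.

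**Figure D5:**
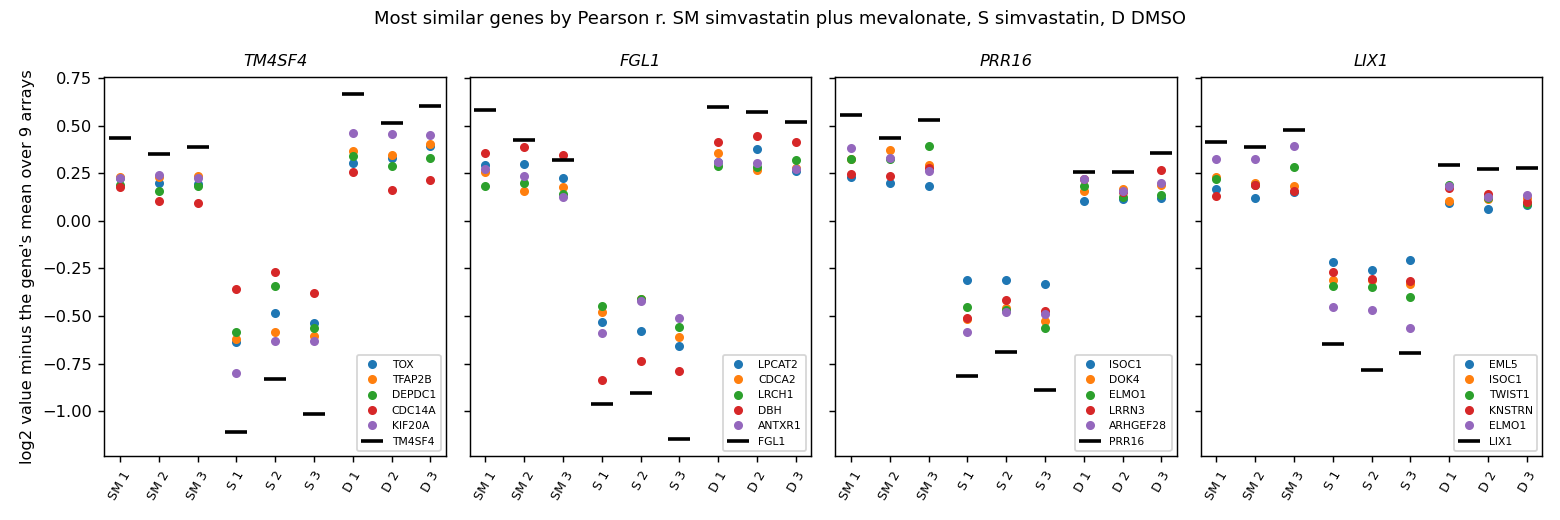
Log2 values on each of the 9 arrays after each gene's own mean over the arrays was taken off, for the 4 genes (black bars) and the 5 genes of highest Pearson r to each (coloured points). SM stands for simvastatin plus mevalonate, S for simvastatin and D for DMSO. The black bars reach lower than every coloured point on the simvastatin arrays. For TM4SF4 the arrays with mevalonate are below the DMSO arrays and for PRR16 and LIX1 above them.

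The labelled cell type was checked against its markers, and markers of other cells were read beside the 4 genes. All 16 measured noradrenergic neuroblastoma markers were above the median of all probesets. Of these, 9 fell with simvastatin and 8 rose with mevalonate, led by DBH (-1.21 ± 0.04 with simvastatin, limma adjusted p = 4.77e-06), ALK (-0.82), ISL1 (-0.74) and CHGA (-0.70), and GATA2 (0.12) rose only without simvastatin replicate 3 (limma adjusted p = 0.0219). Their mean log2 value ranged from 9.60 to 9.67 with simvastatin plus mevalonate, 9.38 to 9.42 with simvastatin and 9.72 to 9.73 with DMSO. Because TM4SF4 and FGL1 are known from liver, 16 measured hepatocyte markers were read. With simvastatin 0 changed (limma, 2 at an unadjusted p under 0.05) and with mevalonate 0 (0 at an unadjusted p under 0.05), and 7 were below the median of all probesets. Their mean ranged from 5.09 to 5.14 with simvastatin plus mevalonate, 5.10 to 5.21 with simvastatin and 5.01 to 5.09 with DMSO, and ALB averaged 4.32 with simvastatin plus mevalonate, 4.39 with simvastatin and 4.30 with DMSO. HP (0.24), HPX (0.23), AMBP (0.16) and APOH (0.15) differed most with simvastatin. HP passed only without simvastatin plus mevalonate replicate 1 (limma adjusted p = 0.0482), and ALB only without simvastatin replicate 1, as higher with simvastatin (0.0217) and lower with mevalonate (0.0347). Of 12 mesenchymal markers 4 fell and 2 rose with simvastatin, and the rises, of S100A6 (0.30) and SNAI2 (0.20), were lost without simvastatin replicate 1 or 3, DMSO replicate 2 and other single arrays (limma adjusted p up to 0.111 and 0.105). Those that fell were LUM (-1.14), DCN (-0.98), TWIST1 (-0.49) and FN1 (-0.38), and the mean ranged from 6.95 to 6.98 with simvastatin plus mevalonate, 6.80 to 6.86 with simvastatin and 7.02 to 7.04 with DMSO. Of 6 Schwann and glial markers, FOXD3, GFAP, S100B, SOX10, ERBB3 and MBP, 0 changed with simvastatin (limma, 0 at an unadjusted p under 0.05), with differences from -0.19 to 0.10. Their mean ranged from 5.20 to 5.22 with simvastatin plus mevalonate, 5.09 to 5.15 with simvastatin and 5.07 to 5.20 with DMSO. The part of a change in the mix of cells in the values of the 4 genes was not tested.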

How the data were processed

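Total RNA of 9 SMS-KCNR samples was measured on Affymetrix whole-transcript arrays. The deposited values are log2 expression per probeset, made by the authors. GCRMA and HOMER are listed, with no version, per the submitters' processing notes, and their settings and the genome build are not given in the sources used here. Medians of the arrays ran from 5.17 to 5.21, and across genes the arrays of one group correlated at 0.994 to 0.996. Of 53617 probesets, 16098 had exactly 1 symbol on the platform's annotation table, and the other 37519 had none or more than 1 and were left out. All 16098 matched RefSeq (GRCh38.p14) by Entrez identifier. For 779 genes with several probesets the one with the highest mean was kept, leaving 14884 genes.

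Groups were compared with limma 3.58.1 in R 4.3.3 (lmFit and eBayes, 1 fit over 9 arrays, 6 residual and 2.39 prior degrees of freedom), with Benjamini-Hochberg adjustment over 14884 genes at 0.05. Errors are limma's standard errors unless called SD. The series' own text calls the samples independent but does not tell whether cultures were separate, so p-values measure only how these samples vary, which may be technical. The number of arrays limits the precision.

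The 4 genes and all gene lists were chosen with earlier results of these data known. Named by rule are the 4 genes, the 5 most similar genes of each (symbols of unnamed loci and small RNAs left out), all flanking genes, HMGCS1, and from each list the 4 genes of largest difference with simvastatin, or all in lists of up to 6. Other listed genes (TEAD1, STK4, NF2, YAP1, ANGPTL8, ANGPT4, FGA, FGB, FGG, FGL2, CD276, CD47, CD274, LAG3, EIF4E, ALB, GATA2, CHGB, S100A6 and SNAI2) were named after their values were seen. The procedure was tested on simulated data. Alternatives were other model options, quantile normalization, the mean over probesets, a filter on dim genes, fits of only the groups compared, all probesets, a replicate block and leaving out each array. Protein sequences are not used here.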

Additional observations from a re-analysis of the deposited data

How the results depend on the processing

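The values of the 4 genes changed little. Under all 16 alternatives, all 272 values of their differences, shares of the gap closed and number called kept their direction. Differences used in the choice, and the shares, carried no test and moved by less than the gene's SD within groups. Only the differences from DMSO with mevalonate and the number called have a side of the test, which they kept. With 1 probeset per gene, only quantile normalization and leaving out an array of a compared group could alter a difference. The other alternatives could alter only its adjusted p. Among the other genes named or like them, 149 calls were lost and 68 gained of 8529 values recomputed, and 0 reversed. None of the 4 differences between simvastatin plus mevalonate and DMSO passed under any of the 16 (limma). Adjusted p ranged from 0.235 to 0.609 for TM4SF4, 0.511 to 0.902 for FGL1, 0.0943 to 0.530 for PRR16 and 0.0999 to 0.609 for LIX1.

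Less stable was the number of genes called between simvastatin plus mevalonate and DMSO, 6 lower and 5 higher by limma. With a mean-variance trend and robust options it was 153 lower and 70 higher, without genes below the median of all probesets 79 and 26, and with quantile normalization 8 were higher. With all probesets 3 were lower. With only the groups compared it was 0 lower and 0 higher. The replicate block also gave 0 lower and 0 higher. Leaving out each array gave 0 to 7 lower and 0 to 6 higher. Between simvastatin plus mevalonate and simvastatin, leaving out each array gave 516 to 712 higher, in place of 791, with the lowest value without simvastatin plus mevalonate replicate 1. With trend and robust options 6 flanking genes changed with mevalonate in place of 3, and 1 flanking gene (PCM1) and 1 gene of the related lists (MFAP4) differed from DMSO in place of 0. Under these options the marker genes ISL1, CHGB, ALK, LUM and DCN and the similar genes TFAP2B, KIF20A and DOK4 differed from DMSO as well. The cause was not tested.

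The labels do not tell whether same-numbered arrays share more than a number. Their deviations from the group means correlated from -0.08 to 0.05, and the block changed no call on the 4 genes. Lists of the 5 most similar genes depend on the measure. Spearman's rho kept 1 of 5 for TM4SF4, 0 for FGL1, 0 for PRR16 and 2 for LIX1, and the root mean square difference kept 0, 1, 0 and 0, and put TM4SF4 and FGL1 first for each other, likewise PRR16 and LIX1.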

Other observations

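After the group means were taken off, LIX1 correlated negatively with the others of the 4 genes over the 9 arrays. These deviations have 6 degrees of freedom, so the correlations are imprecise and are a description with no test. TM4SF4 and PRR16 correlated at 0.64, FGL1 and PRR16 at 0.49 and TM4SF4 and FGL1 at 0.36. LIX1 correlated at -0.63 with TM4SF4, at -0.46 with FGL1 and at -0.36 with PRR16.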
